A study of Mus musculus with 6 samples.

Results

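The 10 genes described here carry MHC class I antigen presentation: the heavy chain genes H2-K1 and H2-D1, the light chain gene B2m, the peptide loading genes Tap1, Tap2 and Tapbp, the immunoproteasome genes Psmb8, Psmb9 and Psmb10, and the regulator gene Nlrc5. They were taken by symbol from the 47480 genes of the deposited table, in which all 10 were present, and all 10 were among the 11595 genes that reached 1 FPKM (fragments per kilobase of gene, scaled to library size) in at least 3 of 6 libraries. RNA was sequenced from primary chondrocytes, the cells of cartilage, of neonatal mice. The A2ARKO group carries a global deletion of the adenosine receptor A2AR, and the WT group is the C57BL/6 strain on which the knockout was bred. Each group has 3 libraries, and each library is a pool of the chondrocytes of a whole litter, so a p-value measures the spread between litter pools. The comparison was set up to look for drivers of osteoarthritis, the joint disease in which cartilage is lost.

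MHC class I molecules display peptides from inside the cell to cytotoxic T cells and are made by nearly all nucleated cells. Proteasomes cut cytosolic proteins into peptides, the TAP transporter carries these into the endoplasmic reticulum, tapasin holds empty class I molecules at the transporter, and the heavy chain leaves for the surface with its peptide and beta-2 microglobulin. Interferons are known to raise the whole set, in which 3 inducible catalytic subunits take the place of the constitutive ones and Nlrc5 acts as the transactivator of class I genes.

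The libraries differed in ways that bear on every value below. Adora2a, the gene of the deleted receptor, read 0.41 to 0.66 FPKM in A2ARKO and 3.46 to 9.36 FPKM in WT. The sum of 10 chondrocyte markers such as Col2a1 and Acan ran from 2201 to 6137 FPKM in A2ARKO and from 484 to 25104 FPKM in WT, and WT replicate 1 was the highest of the 6 libraries for 10 of 10 markers. The sum of 12 macrophage and leukocyte markers ran from 26.7 to 54.1 FPKM in A2ARKO and from 135 to 1917 FPKM in WT, and WT replicate 2 was the highest for 12 of 12. Of these markers only C1qa was listed at 0 in a library, A2ARKO replicate 3. Of the 11 that reached 1 FPKM in at least 3 libraries, 9 lay below WT without overlap, against 14.9% of all genes tested. Of these 9, C1qa, C1qb, Itgam and Laptm5 were below 1 FPKM in every A2ARKO library. They reached that level through WT alone, which fixes their place below WT, so they add no support. Cd14 read 7.76 to 9.49 FPKM in A2ARKO, above WT replicates 1 and 3 (4.14 and 4.39 FPKM). Single genes weigh heavily in both sums: Lyz2 read 1434 FPKM in WT replicate 2, and Col2a1 read 18662 FPKM in WT replicate 1. None of 8 T, B and NK cell markers passed 0.11 FPKM in any library. In RNA from mixed cells, fewer cells of a type and less RNA per cell cannot be told apart.

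**Figure D1:**
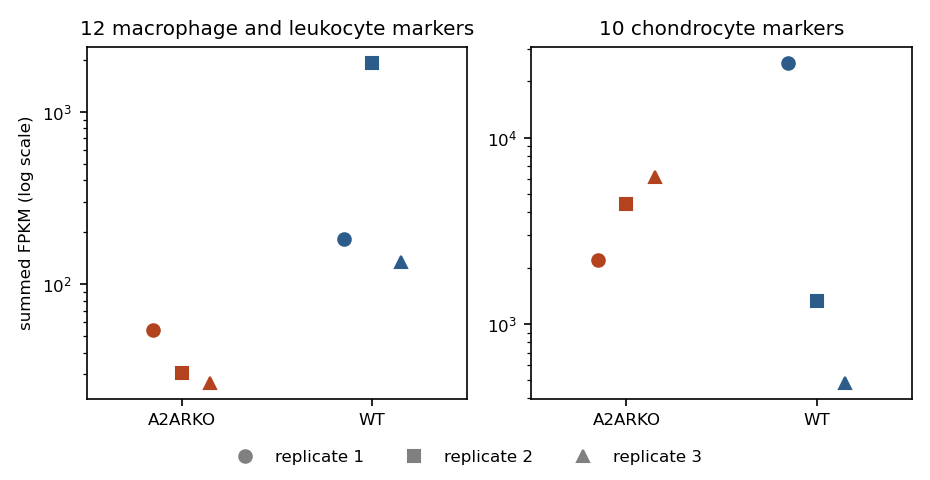
Summed FPKM of 12 macrophage and leukocyte markers (left) and of 10 chondrocyte markers (right) on log axes, with 1 point per library and the symbol giving the replicate. WT replicate 2 stands at 1917 FPKM for the macrophage list, and WT replicate 1 at 25104 FPKM for the chondrocyte list.

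All 10 genes had a higher mean in A2ARKO than in WT chondrocytes, as did 50.4% of all genes tested by the sign of the fold change, with ratios of mean FPKM between 1.42 for Tap2 and 3.91 for Nlrc5. Only Nlrc5 rose by the test: limma called 1 of 10 at an adjusted p below 0.05, where 3.31% of all genes tested were called higher. The groups did not overlap, with A2ARKO above WT, for 7 of 10 genes, against 18% of all genes tested, and 0 of 10 lay below WT without overlap, against 14.9%. The median log2 fold change was 1.10 over the 10 genes and 0.00201 over all genes tested. Adjusted p lay between 0.0457 and 0.262 over the 10 genes, and 9 of 10 had an unadjusted limma p below 0.05, against 14.3% of all genes tested that were higher at that p. Each fold change was computed after adding 1 to the FPKM and taking log2, so the changes of low genes come out too small.

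**Figure D2:**
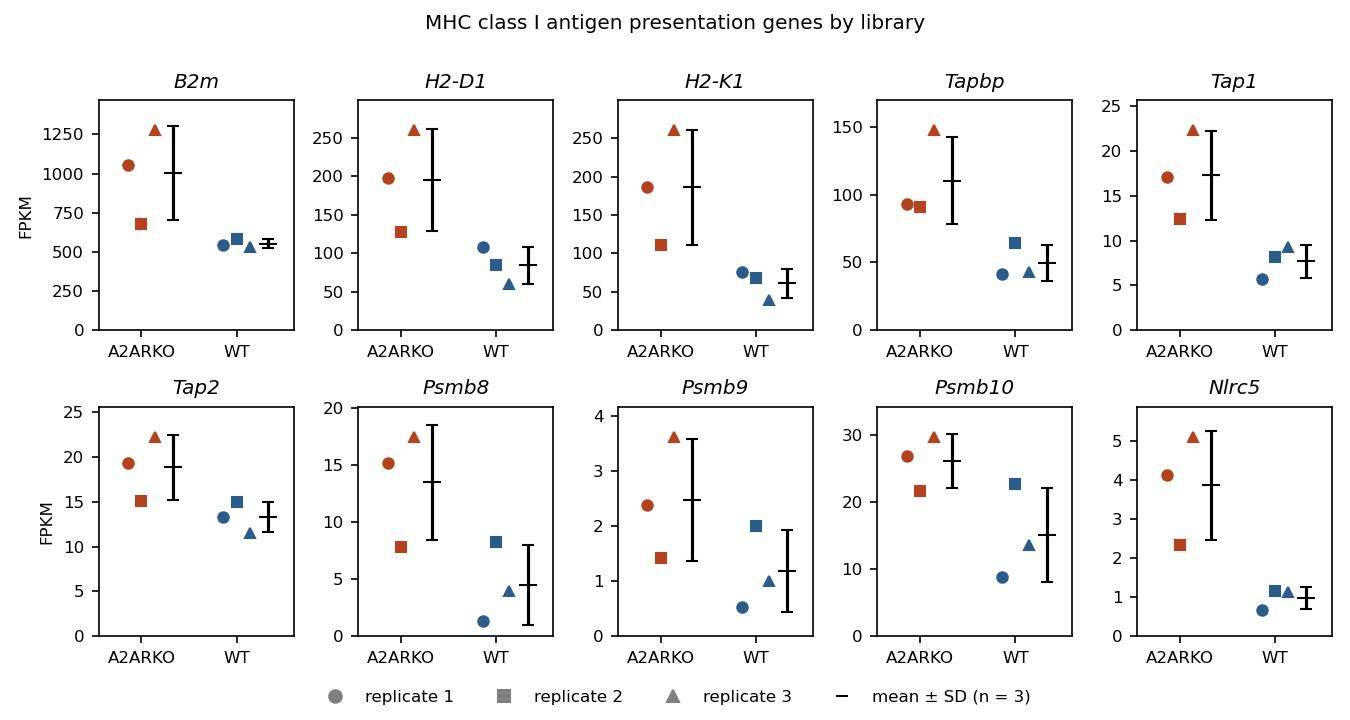
FPKM of each of the 10 genes in every library, A2ARKO left and WT right, with the mean and SD of 3 libraries beside the points and each axis starting at 0. In A2ARKO the highest point is replicate 3 and the lowest replicate 2 in every panel, and the groups overlap for Psmb8, Psmb9 and Psmb10.

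Nlrc5 (chr8:94434356-94527272, plus strand), the class I transactivator, read 4.13, 2.34 and 5.1 FPKM in the A2ARKO libraries and 0.67, 1.16 and 1.13 FPKM in the WT libraries. Every A2ARKO library lay above every WT library, and the lowest of A2ARKO stood well above the highest of WT. The means were 3.86 ± 1.40 FPKM in A2ARKO and 0.987 ± 0.275 FPKM in WT (SD, n = 3). On the log2 scale Nlrc5 was 1.26 ± 0.24 higher (fold change ± standard error, limma adjusted p = 0.0457). Leaving out any 1 of the 6 libraries ended the call: the adjusted p then ran from 0.0560 to 0.153 and the log2 fold change from 1.07 to 1.503. The call was also lost after rescaling the libraries to the same FPKM sum (adjusted p = 0.0566) and without the filter at 1 FPKM (adjusted p = 0.106). WT replicate 1, at 0.67 FPKM, lay below the level of that filter. With annotated exon lengths, its levels correspond to about 1154 to 2272 reads in A2ARKO and 235 to 501 reads in WT, so they do not sit at the counting limit. An antisense lincRNA gene that overlaps Nlrc5, 9330175E14Rik, read 0.42, 0.26 and 0.41 FPKM in A2ARKO and 0.06, 0.16 and 0.09 FPKM in WT.

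B2m (chr2:122147686-122153083, plus strand), which encodes the light chain beta-2 microglobulin, was the most abundant of the set in both groups. It read 1056, 679 and 1276 FPKM in A2ARKO and 542, 584 and 532 FPKM in WT. The WT libraries lay close together, whereas A2ARKO replicate 2 stood nearer to WT than to the other two A2ARKO libraries. Its log2 fold change of 0.81 ± 0.29 (standard error) did not pass (limma adjusted p = 0.152).

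H2-K1 (chr17:33996017-34000347, minus strand) and H2-D1 (chr17:35262730-35267499, plus strand) encode the K and D heavy chains, which bind the peptide. H2-K1 read 187, 111 and 261 FPKM in A2ARKO and 75.8, 68 and 39.3 FPKM in WT. H2-D1 read 198, 127 and 260 FPKM in A2ARKO and 108, 84.5 and 60.1 FPKM in WT. Neither gene overlapped between the groups, and in both WT replicate 3 was the lowest. The log2 fold changes were 1.56 for H2-K1 (standard error 0.38, limma adjusted p = 0.0724) and 1.18 for H2-D1 (standard error 0.33, limma adjusted p = 0.0936), so neither passed. Class I heavy chains resemble each other: of all stretches of 50 bases in annotated transcripts, 9.63% of those of H2-K1 and 12.8% of those of H2-D1 also occur in transcripts of another gene, so some reads may have been split between genes.

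The ratio of H2-K1 to H2-D1 within a library, chosen after the values were seen, was 0.944, 0.871 and 1.003 in A2ARKO and 0.701, 0.805 and 0.655 in WT. The ratios did not overlap between groups. The log2 difference was 0.39 (two-sided exact permutation p = 0.1, and no smaller p can come from 3 against 3 libraries). The shared stretches limit this ratio as they limit both genes.

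The bases before the starts of B2m and the heavy chain genes are shown because these genes lay higher in A2ARKO in every library and share a motif match. Sequences and starts are those of RefSeq on GRCm38.p6, and 8 of the 10 genes had an entry. These starts can differ from the ends of the gene positions given here. The windows of H2-D1, Tapbp, Psmb8 and Psmb9 lie within those positions. The 250 bases before each start were searched on both strands for the gamma-interferon activation site GAS (TTCNNNGAA), the core of the interferon-stimulated response element ISRE (GAAA and GAAA with 2 bases between), the NF-kappaB site (GGG, 2 bases, TT, 1 base, CC) and the core of the Y box (ATTGG). Capitals mark matches, and no matches overlap in the sequences shown. In the first, B2m (chr2:122147437-122147686, plus strand), they are in order an ISRE core, an NF-kappaB match and a Y box core. In the second, H2-K1 (chr17:34000348-34000597, minus strand), they are an NF-kappaB match and a Y box core.
B2m: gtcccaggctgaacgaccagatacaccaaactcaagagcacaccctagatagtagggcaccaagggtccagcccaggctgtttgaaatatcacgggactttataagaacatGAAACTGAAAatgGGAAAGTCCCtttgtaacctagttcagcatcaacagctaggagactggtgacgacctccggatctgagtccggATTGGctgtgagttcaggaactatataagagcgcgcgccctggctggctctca
H2-K1: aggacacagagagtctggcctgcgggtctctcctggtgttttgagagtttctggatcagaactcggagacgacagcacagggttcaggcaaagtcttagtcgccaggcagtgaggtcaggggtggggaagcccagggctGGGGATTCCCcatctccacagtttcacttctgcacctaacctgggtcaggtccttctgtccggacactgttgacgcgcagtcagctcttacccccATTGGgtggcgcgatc

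The heavy chain genes hold the same NF-kappaB match in the same surroundings, and 1 of the 30 bases below differs between them. The stretch of H2-K1 lies at chr17:34000439-34000468 (minus strand) and that of H2-D1 at chr17:35262913-35262942 (plus strand). The stretch of Psmb8 (chr17:34198088-34198116, plus strand) holds the only GAS match among the 8 genes.
H2-K1 NF-kappaB: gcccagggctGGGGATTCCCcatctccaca
H2-D1 NF-kappaB: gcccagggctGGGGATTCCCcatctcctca
Psmb8 GAS: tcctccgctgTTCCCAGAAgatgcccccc
An NF-kappaB match stood in 3 of 8 genes (B2m, H2-K1 and H2-D1) and in 4.11% of all 32851 RefSeq windows of that length. The matches of H2-K1 and H2-D1 lie in nearly the same sequence, so they do not count as independent. An ISRE core stood in 1 of 8 genes and 2.98% of windows, a GAS match in 1 of 8 and 7.02%, and a Y box core in 6 of 8 and 33.8%. The Y box cores of Tap1 and Psmb9 are the same bases, since the windows of these genes overlap. H2-K1 had more than 1 window, whereas the background counts each window. A match is a string of letters in the window and says nothing of binding. A site that departs from the searched letters was not counted, so a gene without a match may still hold one.

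Tap1 (chr17:34187553-34197225, plus strand) and Tap2 (chr17:34203527-34216321, plus strand) encode the chains of the peptide transporter. Tap1 read 17.1, 12.45 and 22.3 FPKM in A2ARKO and 5.66, 8.12 and 9.26 FPKM in WT. Tap2 read 19.25, 15.01 and 22.2 FPKM in A2ARKO and 13.3, 14.93 and 11.55 FPKM in WT. Both were free of overlap, but for Tap2 A2ARKO replicate 2, at 15.01 FPKM, stood next to WT replicate 2, at 14.93 FPKM. The log2 fold change was 1.06 for Tap1 (standard error 0.25, limma adjusted p = 0.0654) and 0.47 for Tap2, the smallest of the 10 (standard error 0.16, limma adjusted p = 0.153). The ratio of Tap1 to Tap2, again chosen after the values were seen, was 0.886, 0.829 and 1.004 in A2ARKO and 0.426, 0.544 and 0.802 in WT, a log2 difference of 0.66 (two-sided exact permutation p = 0.1). Tap1 overlaps the divergent gene Psmb9 by 212 annotated bases, and whether reads were counted by strand is not stated.

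Tapbp (chr17:33915899-33929292, plus strand) encodes tapasin, the chaperone that bridges the heavy chain and the transporter. It read 93.05, 90.95 and 148 FPKM in A2ARKO and 41.2, 64.65 and 42.9 FPKM in WT. The groups did not overlap, and WT replicate 2 was the highest of WT. Tapbp missed the threshold at a log2 fold change of 1.13 ± 0.26 (standard error, limma adjusted p = 0.0629), and leaving out 1 library moved that value to between 0.91 and 1.34. Zbtb22, which overlaps Tapbp in the annotation, averaged 10.4 ± 0.485 FPKM in A2ARKO and 11.9 ± 2.58 FPKM in WT (SD, n = 3). The antisense gene Gm19412, also overlapping, read 5.61, 3.74 and 4.72 FPKM in A2ARKO and 2.67, 2.41 and 3.3 FPKM in WT.

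Of 14 genes for peptide loading and trimming, limma called 0, against 5.08% of all genes tested, and 2 had an unadjusted p below 0.05, a smaller share than the 24.7% of all genes tested. The median log2 fold change was 0.18. The 2 with the smallest p were Erap1, the aminopeptidase that trims peptides in the endoplasmic reticulum (19.3 ± 4.42 FPKM in A2ARKO and 11.0 ± 1.62 FPKM in WT, limma adjusted p = 0.0694), and the tapasin-related gene Tapbpl (7.35 ± 1.05 FPKM in A2ARKO and 4.95 ± 0.506 FPKM in WT, limma adjusted p = 0.0810). The log2 fold change of Canx, calnexin, was 0.13 (95% interval -0.19 to 0.45).

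Psmb8 (chr17:34197721-34201454, plus strand), Psmb9 (chr17:34181987-34187764, minus strand) and Psmb10 (chr8:105935735-105938444, minus strand) encode the inducible catalytic subunits of the immunoproteasome. Psmb8 read 15.2, 7.83 and 17.5 FPKM in A2ARKO and 1.31, 8.23 and 4.01 FPKM in WT. Psmb9 read 2.38, 1.42 and 3.62 FPKM in A2ARKO and 0.54, 2 and 1.01 FPKM in WT. Psmb10 read 26.9, 21.7 and 29.8 FPKM in A2ARKO and 8.87, 22.65 and 13.7 FPKM in WT. For all 3 the groups overlapped at a single point, since WT replicate 2 read above A2ARKO replicate 2.

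None of these 3 genes passed. The log2 fold changes were 1.54 for Psmb8 (standard error 0.54, limma adjusted p = 0.152), 0.67 for Psmb9 (standard error 0.32, limma adjusted p = 0.262) and 0.84 for Psmb10 (standard error 0.32, limma adjusted p = 0.178). WT replicate 2 is the library whose macrophage markers summed to 1917 FPKM, and WT replicate 1, the lowest of WT for the 3 genes, is the one whose chondrocyte markers summed to 25104 FPKM. Leaving out WT replicate 2, the only WT library that overlapped A2ARKO, ends the overlap by construction. The log2 fold changes without WT replicate 2 were 2.02 for Psmb8, 0.93 for Psmb9 and 1.16 for Psmb10, with limma adjusted p of 0.0910, 0.163 and 0.0689. Without WT replicate 1 they were 1.02, 0.45 and 0.53. The part of macrophage RNA or of the cartilage program in these values was not tested.

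Each inducible subunit was then set against the constitutive subunit whose place it takes, within the same library, which cancels library scaling. The ratio of Psmb8 to Psmb5 was 0.489, 0.271 and 0.637 in A2ARKO and 0.0467, 0.2498 and 0.161 in WT, so the groups did not overlap but A2ARKO replicate 2 and WT replicate 2 lay close. Psmb9 to Psmb6 averaged 0.0502 ± 0.0249 in A2ARKO and 0.0216 ± 0.0106 in WT, and Psmb10 to Psmb7 averaged 1.05 ± 0.192 in A2ARKO and 0.623 ± 0.241 in WT (SD, n = 3). Both of these overlapped between groups. The log2 differences of the 3 ratios were 1.83, 1.23 and 0.82, with two-sided exact permutation p of 0.1, 0.2 and 0.2 and 0.2 for each when adjusted over the 3. The test cannot go below 0.1 with 3 against 3 libraries. Without WT replicate 1 the log2 differences were 1.13, 0.81 and 0.51.

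**Figure D3:**
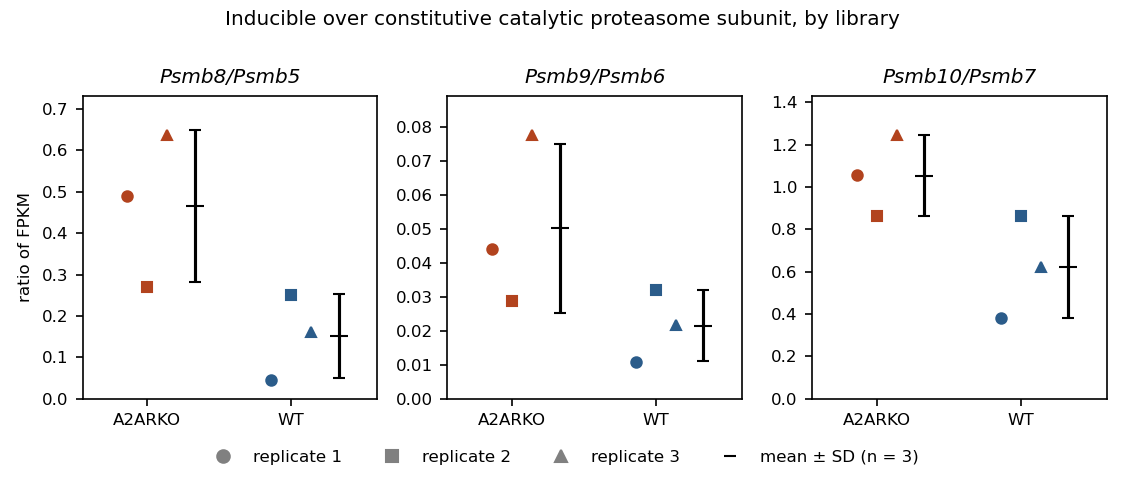
Ratio of the FPKM of each inducible catalytic subunit to that of its constitutive counterpart, by library, A2ARKO left and WT right, with mean and SD of 3 libraries and axes starting at 0. Psmb10 reaches about the level of Psmb7 in A2ARKO (1.05 ± 0.192), while Psmb9 stays at a small share of Psmb6 in both groups.

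The other core subunits of the proteasome differed little between groups. Psmb5, Psmb6 and Psmb7 had log2 fold changes of 0.03 (95% interval -0.27 to 0.33), -0.07 (-0.40 to 0.26) and 0.07 (-0.16 to 0.29). Of 11 other core subunits limma called 0, against 5.08% of all genes tested, and 0 had an unadjusted p below 0.05, against 24.7%. Their log2 fold changes lay between -0.10 and 0.15. Of 9 activator and assembly genes limma called 0 and 0 had an unadjusted p below 0.05, against the same shares. In lists this short, 0 calls lies near the share of all genes. The 2 with the smallest p were Psme2, an interferon-inducible activator subunit, and Pomp, the proteasome maturation protein gene, at log2 fold changes of 0.54 and 0.19 (limma adjusted p = 0.248 and 0.262). Psme2 averaged 16.6 ± 1.75 FPKM in A2ARKO and 11.5 ± 3.98 FPKM in WT (SD, n = 3).

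By level per gene length, the order in A2ARKO was B2m, H2-D1, H2-K1, Tapbp, Psmb10, Tap2, Tap1, Psmb8, Nlrc5 and Psmb9, at mean FPKM from 1004 to 2.47. In WT it was the same except that Nlrc5, at 0.987 FPKM, came after Psmb9, at 1.18 FPKM. In A2ARKO the library ranges of neighbours overlapped except between B2m and H2-D1, between Tapbp and Psmb10 and between Psmb8 and Nlrc5. In WT they overlapped except between B2m and H2-D1, between Tapbp and Psmb10 and between Tap2 and Tap1. Light chain, heavy chains and tapasin stood above the peptide supply genes in both groups.

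The 10 genes ordered the A2ARKO libraries in the same way. Replicate 3 was the highest and replicate 2 the lowest for 10 of 10, an order that 8.57% of all genes tested showed. The WT libraries had no common order: replicate 2 was the highest for 7 of 10 and replicate 1 the lowest for 6 of 10, as for 30.7% and 37.2% of all genes tested. Without A2ARKO replicate 2 the groups did not overlap for any of the 10 genes, which follows from leaving out the only A2ARKO library that overlapped WT. Limma then called 0 of 10, and 50 of all 11595 genes tested.

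**Figure D4:**
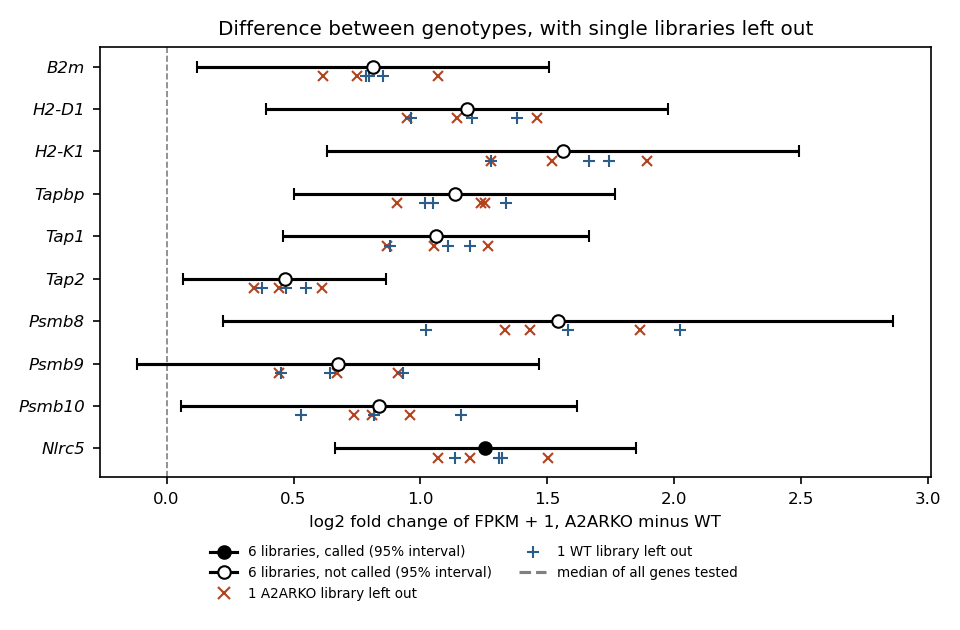
Log2 fold change of FPKM + 1, A2ARKO minus WT, for each gene over 6 libraries with its 95% interval, and the values with 1 library left out (crosses for A2ARKO, plus signs for WT). All values lie above the median of all genes tested (dashed line), and the interval of Psmb9 crosses 0.

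Among the other class I heavy chain genes, H2-Q4 rose. Of 20 listed genes 11 passed the filter on low values, and of these limma called 4 higher and 0 lower and 7 did not pass, where 3.31% of all genes tested were called higher and 1.77% lower. Of the 4 called, 3 passed the filter through A2ARKO alone. H2-Q4, which encodes a nonclassical heavy chain, read 31.1, 16.15 and 43.1 FPKM in A2ARKO and 3.9, 7.53 and 4.27 FPKM in WT (log2 fold change 2.26, limma adjusted p = 0.0346). H2-Q6 read 6.82, 3.89 and 16.2 FPKM in A2ARKO and 0.4, 0.41 and 0.25 FPKM in WT (log2 fold change 2.69, limma adjusted p = 0.0306). H2-Q7 and H2-Q10 were called at log2 fold changes of 1.54 and 1.19. H2-Q6, H2-Q7 and H2-Q10 are the 3 below 1 FPKM in every WT library, and their calls add no support.

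Shared sequence limits these values more than those of the main set. Of the 50-base stretches of H2-Q4, H2-Q6, H2-Q7 and H2-Q10, 21.8%, 32.0%, 26.4% and 19.0% occur in transcripts of another gene, so reads of one may have been counted for another. With each library left out in turn the adjusted p ran from 0.0511 to 0.123 for H2-Q4, from 0.0422 to 0.102 for H2-Q6, from 0.0590 to 0.144 for H2-Q7 and from 0.0363 to 0.0836 for H2-Q10. H2-T22 and H2-T23, nonclassical genes of the T region, stood at log2 fold changes of 0.96 and 1.30 without passing (limma adjusted p = 0.0572 and 0.106). The class I-like genes Mr1, Cd1d1, Hfe and Fcgrt had log2 fold changes between -0.28 and 0.40, and none of the 4 passed.

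Of 21 genes for factors that act on class I promoters or on interferon signalling, 19 passed the filter, 2 rose, 0 fell and 17 did not pass, where 3.31% of all genes tested were called higher and 1.77% lower. The interferon regulatory factor gene Irf7 read 34.7, 17.8 and 53.0 FPKM in A2ARKO and 4.4, 8.5 and 8.17 FPKM in WT (log2 fold change 2.09, limma adjusted p = 0.0491), and no fit on 5 libraries called it (0.0629 to 0.151). Nfkb1, which encodes the p50 subunit of NF-kappaB, averaged 9.96 ± 0.576 FPKM in A2ARKO and 7.09 ± 0.223 FPKM in WT (SD, n = 3; log2 fold change 0.44, limma adjusted p = 0.0371). Nfkb1 kept the call without WT replicate 1 (adjusted p = 0.0424) and lost it without any other library (0.0503 to 0.170) and at the same FPKM sum (0.177). Rfx5, Rfxap and Rfxank, whose products hold Nlrc5 at the class I promoter, stood at log2 fold changes of 0.27, 0.01 and 0.04, none of which passed.

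Of 9 genes for interferon receptors and their kinases, 8 passed the filter, 2 rose, 0 fell and 6 did not pass, against the same shares of 3.31% higher and 1.77% lower. Ifngr1, the ligand-binding chain of the interferon gamma receptor, read 37.9, 31.7 and 33.4 FPKM in A2ARKO and 22.6, 20.0 and 19.1 FPKM in WT (log2 fold change 0.71, limma adjusted p = 0.0261). Ifnar2, a chain of the type I interferon receptor, read 22.7, 19.6 and 24.2 FPKM in A2ARKO and 11.25, 15.2 and 10.9 FPKM in WT (log2 fold change 0.79, limma adjusted p = 0.0429). Neither gene overlapped between groups. At the same FPKM sum Ifngr1 and Ifnar2 did not pass (adjusted p = 0.0660 and 0.0907). Ifngr1 lost the call without any 1 A2ARKO library or without WT replicate 2 (adjusted p between 0.0640 and 0.115), and Ifnar2 in every such fit except that without WT replicate 2 (0.0598 to 0.168, against 0.0322).

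Of the interferon ligand genes Ifng, Ifnb1, Ifna2, Ifna4, Ifnk, Ifne, Ifnl2 and Ifnl3, 8 of 8 were listed at 0 in all 6 libraries. Tnf, the other cytokine gene on that list, read 0.89, 0.45 and 0.25 FPKM in A2ARKO and 0.07, 4.49 and 0.38 FPKM in WT, with its highest value in the library richest in macrophage markers. A value listed at 0 leaves expression under the rounding of the table undetected.

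**Figure D5:**
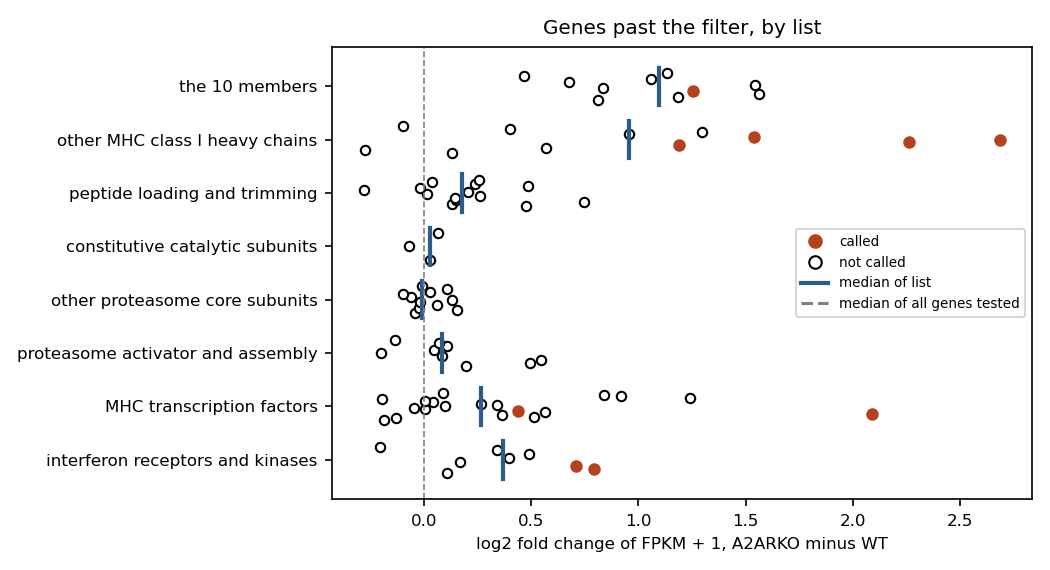
Log2 fold change of FPKM + 1, A2ARKO minus WT, for every gene past the filter in 8 lists (1 point per gene, filled where called, with the median of the list as a bar). The proteasome lists other than the immunoproteasome genes center near the median of all genes tested (dashed line), and the calls lie among the heavy chain, factor and receptor genes and Nlrc5.

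The 5 genes outside the set whose profile over the 6 libraries was most like its mean profile were H2-Q4, Oasl1 and Oas1a of the oligoadenylate synthetase family, the RNA helicase gene Dhx58 and the guanylate-binding protein gene Gbp5. The likeness is the root mean square distance between profiles of log2(FPKM + 1) scaled to unit SD over the 6 libraries. It was 0.125, 0.126, 0.135, 0.152 and 0.172 for these genes and 0.200 to 0.419 for the 10 genes themselves. Oas1a read 10.2, 4.2 and 13.7 FPKM in A2ARKO and 0.57, 2.75 and 1.54 FPKM in WT. Gbp5 read 2.31, 1.77 and 3.55 FPKM in A2ARKO and 0.09, 0.93 and 0.19 FPKM in WT. The choice by profile fixes that these genes follow the library order of the set. Oasl1 and Gbp5 were below 1 FPKM in every WT library and passed the filter through A2ARKO alone.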

How the data were processed

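The authors deposited 1 table of FPKM (values per gene length and library total, 2 decimals) for 6 libraries. Per the submitters' processing notes, HTSeq and build mm10 were used; the sources used here give no aligner, annotation, gene lengths or strand setting. Genes with 1 FPKM or more in at least 3 of 6 libraries (11595) were fitted with limma 3.58.1 in R 4.3.3 (trend, two-sided) on log2(FPKM + 1), with Benjamini-Hochberg adjustment over all of them and calls at an adjusted p below 0.05. Positions and exon lengths are those of GENCODE M21 on GRCm38 (mm10). The steps between low values of genes up to 150 nt put the depth at 51.1 to 58.05 M reads in A2ARKO and 41.3 to 52.2 M reads in WT, with 99.05% or more of values up to 10 reads whole within 0.1 read; read numbers derived from it are approximate. No 2 libraries of a group shared more than 0.776% of values. Genes named are the 10, up to 4 called members of each list (or up to 2 with the smallest p), and the 5 most alike in profile; Canx, Zbtb22, Gm19412, 9330175E14Rik, the Rfx genes, the H2-T and class I-like genes, Tnf, Cd274, the MHC class II genes and the ratios marked so were chosen after their values were seen. Cd14 was also chosen after its values were seen. The 10 genes and all lists were chosen with earlier results of these data known. Alternatives were another pseudocount (0.1), other filters and scalings, a replicate block, and leaving out libraries. The fit was tested on simulated data, with the same spread in both groups and changes placed only in genes above a set level. There limma recovered 22% of log2 changes of 0.5 and 68% of those of 1. A gene that did not pass may therefore still differ.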

Additional observations from a re-analysis of the deposited data

How the results depend on the processing

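All 130 log2 fold changes of the 10 genes under 13 alternatives stayed above 0. The number of the 10 called, 1 (Nlrc5), was 0 without a filter (Nlrc5 adjusted p = 0.106), at the same FPKM sum, with a replicate block, with each library left out in turn (0 to 0), and without WT replicates 1 and 2, an alternative chosen after seeing the data that leaves 1 WT library, assumed to vary like the others. With a pseudocount of 0.1, a filter on mean FPKM or quantile normalization it was 1. Over all genes, 589 calls became 213 without a filter, 348 at the same FPKM sum, 2 with a replicate block, and 50 to 900 with each library left out. The share of higher calls was 65.2%, against 51.1% at the same FPKM sum and 53.8% after quantile normalization. Same-numbered libraries deviated from their group means in opposite directions (correlations from -0.52 to -0.33). The labels do not say whether the numbers pair the litters. These correlations cannot decide it, since the deviations of 3 libraries from their mean sum to 0. The replicate block took Nlrc5 to an adjusted p of 0.156. The direction of the 3 proteasome ratios held in each alternative run; with the replicate block their exact p were 0.25, 0.5 and 0.5, where 0.25 is the smallest possible. The median SD of log2(FPKM + 1) was 0.0966 in A2ARKO and 0.192 in WT.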

Other observations

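Genes for NK, inhibitory and costimulatory ligands showed no call. Of 10 such genes 6 passed the filter and limma called 0, against 5.08% of all genes tested. Among those past the filter 2 had an unadjusted p below 0.05, against 24.7%. These were Cd80, a costimulatory ligand, with 11.1, 22.9 and 24.1 FPKM in A2ARKO and 11.0, 3.7 and 7.56 FPKM in WT (log2 fold change 1.30, limma adjusted p = 0.134), and Raet1d, a ligand of the activating receptor NKG2D, with 4.27 ± 1.02 FPKM in A2ARKO and 2.65 ± 0.615 FPKM in WT (SD, n = 3; limma adjusted p = 0.172). Cd274, which encodes the inhibitory ligand PD-L1, read 1.16, 0.73 and 1.33 FPKM in A2ARKO and 0.38, 0.9 and 0.55 FPKM in WT and was below the filter.

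MHC class II genes, which mark professional antigen-presenting cells, did not exceed 9.55 FPKM in any library. Of 7 genes 3 passed the filter. Limma called 0 of these, against 5.08% of all genes tested, and 0 had an unadjusted p below 0.05, against 24.7%. With 3 genes, 0 calls lies near the share of all genes. Ciita, the class II counterpart of Nlrc5, did not exceed 0.01 FPKM in A2ARKO or 0.05 FPKM in WT. Cd74, the invariant chain gene, read 1.32, 0.92 and 0.99 FPKM in A2ARKO and 0.46, 6.73 and 0.77 FPKM in WT, with WT replicate 2 again the highest. H2-Ab1 read 2.65, 5.44 and 9.55 FPKM in A2ARKO and 8.53, 2.98 and 0.49 FPKM in WT, the order of the summed chondrocyte markers over the libraries of each group.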
